A study of Mus musculus with 8 samples.

Results

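Macrophages are the resident phagocytes of solid tissues, and 10 genes that mark them were followed here through liver and epididymal white adipose tissue (eWAT, the fat pad attached to the epididymis) of mice labelled with or without a deletion of Crtc1, a coactivator of the transcription factor CREB. The genes were chosen by symbol: Adgre1, Csf1r, Cd68, Lyz2, Mrc1, Cd163, Marco, Clec4f, Vsig4 and Timd4. All 10 were among the 19348 genes of the deposited table, all 10 had counts in all 8 libraries, and all 10 passed the filter on low counts in each comparison. The libraries were made from male C57BL/6 mice aged 12 weeks, kept on normal chow and fasted for 16 h before tissue was taken. Each tissue had 2 libraries from mice labelled Crtc1-/- and 2 from littermates labelled Crtc1+/+, 4 groups in all, and the study called them independent biological replicates. The paper describes pieces of liver and eWAT from 2 mice of each genotype, so libraries of both tissues may share mice. The main tests did not pair them. The Crtc1-/- line came from CRISPR/Cas9 cutting at exons 2 and 4, so the deletion was present in every tissue and cell type and a difference in macrophage genes cannot be assigned to macrophages themselves. Libraries are named by tissue, labelled genotype and replicate number.

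The genes lie on 8 different chromosomes (GRCm38, GENCODE annotation), and all are protein coding. Adgre1 spans chr17:57358691-57483527 on the plus strand with 22 exons in its longest transcript, Csf1r spans chr18:61100598-61132149 on the plus strand with 21 exons, Cd68 spans chr11:69664213-69666153 on the minus strand with 6 exons, and Lyz2 spans chr10:117277331-117282321 on the minus strand with 4 exons. Mrc1 spans chr2:14229392-14332057 on the plus strand with 30 exons, Cd163 spans chr6:124304656-124330527 on the plus strand with 17 exons, and Marco spans chr1:120474538-120505024 on the minus strand with 17 exons. Clec4f spans chr6:83644542-83656187 on the minus strand with 7 exons, Vsig4 spans chrX:96247203-96293438 on the minus strand with 7 exons, and Timd4 spans chr11:46810800-46844332 on the plus strand with 9 exons. Of the 50-base windows of the longest transcript, 17.7% in Csf1r also lay in Hmgxb3, which overlaps it on the opposite strand, and 15.4% in Lyz2 also lay in its paralog Lyz1, so reads of these pairs may have been divided between them. The share was 0.137% in Cd163 and 0 in the other 7 genes.

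Tissue macrophages depend on signalling through the CSF1 receptor, which binds CSF1 and IL-34, and on the transcription factor PU.1, the product of Spi1. Those of the liver, the Kupffer cells, line the sinusoids and clear bacteria, complement-coated particles and old red cells from portal blood. Macrophages of adipose tissue lie between adipocytes, take up lipid and debris, and are known to increase in obesity. Of the 10 genes, Adgre1 (the antigen F4/80), Csf1r (the CSF1 receptor), Cd68 (a glycoprotein of late endosomes and lysosomes) and Lyz2 (lysozyme 2) are found on macrophages of most tissues. Mrc1 (the mannose receptor CD206), Cd163 (the receptor for haemoglobin bound to haptoglobin) and Marco (a collagen-like receptor for bacteria) are endocytic or scavenger receptors. Clec4f, a C-type lectin, marks Kupffer cells in the mouse, Vsig4 is a complement receptor of Kupffer cells and some other resident macrophages, and Timd4 binds phosphatidylserine on dying cells.

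Because PU.1 acts on a purine-rich element that contains GAGGAA, the PU box, the sequence before the start of each gene was searched for these letters on both strands. RefSeq promoter entries (GRCm38.p6) were found for 8 of the 10 genes, all but Adgre1 and Csf1r. In the 250 bases before the start, 4 of the 8 held the letters (Cd68, Mrc1, Marco and Vsig4), against 23.3% of 32851 promoters of the same length. The longer form GAGGAAGT, which contains the PU box, was in 0 of the 8 and in 2.44% of all, and TATAAA was in 0 of the 8 and in 12.4% of all. Windows of a general, a scavenger and a Kupffer cell gene that held the letters are shown first, and that of Timd4, which did not hold them, last. Each is written 5′ to 3′ on the gene's strand with the PU box in capitals.
Cd68 (chr11:69666171-69666420, minus strand): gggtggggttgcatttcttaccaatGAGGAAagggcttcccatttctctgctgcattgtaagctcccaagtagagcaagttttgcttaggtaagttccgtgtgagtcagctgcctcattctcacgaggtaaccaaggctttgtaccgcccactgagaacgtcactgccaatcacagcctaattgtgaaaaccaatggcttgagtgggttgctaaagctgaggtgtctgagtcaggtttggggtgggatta
Marco (chr1:120505025-120505274, minus strand): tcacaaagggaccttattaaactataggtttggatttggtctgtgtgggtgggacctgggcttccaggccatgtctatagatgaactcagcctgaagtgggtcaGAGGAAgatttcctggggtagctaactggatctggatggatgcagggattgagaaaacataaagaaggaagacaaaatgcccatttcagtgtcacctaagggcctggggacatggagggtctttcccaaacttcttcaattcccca
Vsig4 (chrX:96293439-96293688, minus strand): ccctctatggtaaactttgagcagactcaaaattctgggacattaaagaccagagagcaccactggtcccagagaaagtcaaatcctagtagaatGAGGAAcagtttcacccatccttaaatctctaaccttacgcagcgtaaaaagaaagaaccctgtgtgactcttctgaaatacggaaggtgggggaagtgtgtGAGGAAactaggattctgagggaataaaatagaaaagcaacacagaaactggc
Timd4 (chr11:46810549-46810798, plus strand): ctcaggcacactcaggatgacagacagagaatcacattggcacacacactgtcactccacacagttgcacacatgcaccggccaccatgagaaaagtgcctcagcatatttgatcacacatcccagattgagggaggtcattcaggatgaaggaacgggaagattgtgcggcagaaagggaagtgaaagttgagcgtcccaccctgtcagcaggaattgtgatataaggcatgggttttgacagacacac
The nearest PU box lay 225 bases before the start in Cd68, 146 in Marco and 53 in Vsig4. Vsig4 held 2 copies and Mrc1 3. A match describes the letters only, and nothing was measured at these sites.

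Each library held 16560070 to 19721464 counts, so that 3 counts, taken as the floor, corresponded to 0.152 to 0.181 CPM (counts scaled to 1000000 per library). Counts of the targeted gene did not fall with the label Crtc1-/-. In eWAT, Crtc1 was at 57.6 and 27.5 CPM across libraries labelled Crtc1-/- and at 36.9 in both labelled Crtc1+/+, and in liver it was at 22.1 and 18.6 CPM against 11.6 and 9.61. Gene totals cannot show whether the targeted exons were missing. The eWAT libraries also differed in tissue markers. Summed over 14 epididymis genes, the libraries labelled Crtc1+/+ had 83789 and 96815 CPM, against 43 and 12 in those labelled Crtc1-/-. Over 12 adipocyte genes they had 2522 and 3808 CPM, against 45034 and 20815. Over 13 hepatocyte genes, eWAT Crtc1-/- replicate 2 had 114930 CPM, against 1923 to 8526 in the other 3 eWAT libraries and 206500 to 246100 in liver. Epididymis genes were thus high in both eWAT libraries labelled Crtc1+/+, and liver genes were high in 1 labelled Crtc1-/-.

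Per length, the general macrophage genes led in eWAT and Clec4f and Lyz2 led in liver. In FPKM (fragments per kilobase of transcript, scaled to library total), the order in eWAT labelled Crtc1+/+ was Lyz2 at 80.3 ± 56.3 (SD, n = 2), Cd68 at 24.2 ± 8.25, Csf1r at 14.0 ± 4.06, Adgre1 at 2.41 ± 0.31, Marco at 2.11 ± 2.90, Mrc1 at 1.37 ± 0.085, Cd163 at 0.98 ± 0.071, Timd4 at 0.79 ± 0.87, Clec4f at 0.53 ± 0.63 and Vsig4 at 0.43 ± 0.42. Lyz2, Cd68 and Csf1r were each above the next gene in both libraries. Marco overlapped with Adgre1 and with Mrc1, Timd4 overlapped with Cd163, and Timd4, Clec4f and Vsig4 overlapped with each other. In liver labelled Crtc1+/+ the order in FPKM was Clec4f at 26.3 ± 8.15, Lyz2 at 23.0 ± 9.45, Csf1r at 12.7 ± 4.55, Cd68 at 10.6 ± 3.72, Vsig4 at 10.1 ± 2.29, Marco at 4.61 ± 3.44, Adgre1 at 1.40 ± 0.64, Timd4 at 1.15 ± 0.26, Cd163 at 0.65 ± 0.16 and Mrc1 at 0.62 ± 0.24. Clec4f and Lyz2 overlapped, as did Csf1r, Cd68 and Vsig4, then Adgre1 and Timd4, and then Cd163 and Mrc1. Liver labelled Crtc1-/- gave Clec4f 27.4 ± 9.18 FPKM, Lyz2 19.3 ± 14.4, Cd68 17.1 ± 4.12, Csf1r 13 ± 4.38 and Vsig4 9.83 ± 3.53, and eWAT labelled Crtc1-/- gave Lyz2 296 ± 174, Cd68 56.9 ± 36.8, Csf1r 45.4 ± 23.0 and Adgre1 10.4 ± 6.34. In whole tissue, fewer macrophages and less RNA per macrophage cannot be told apart.

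**Figure D1:**
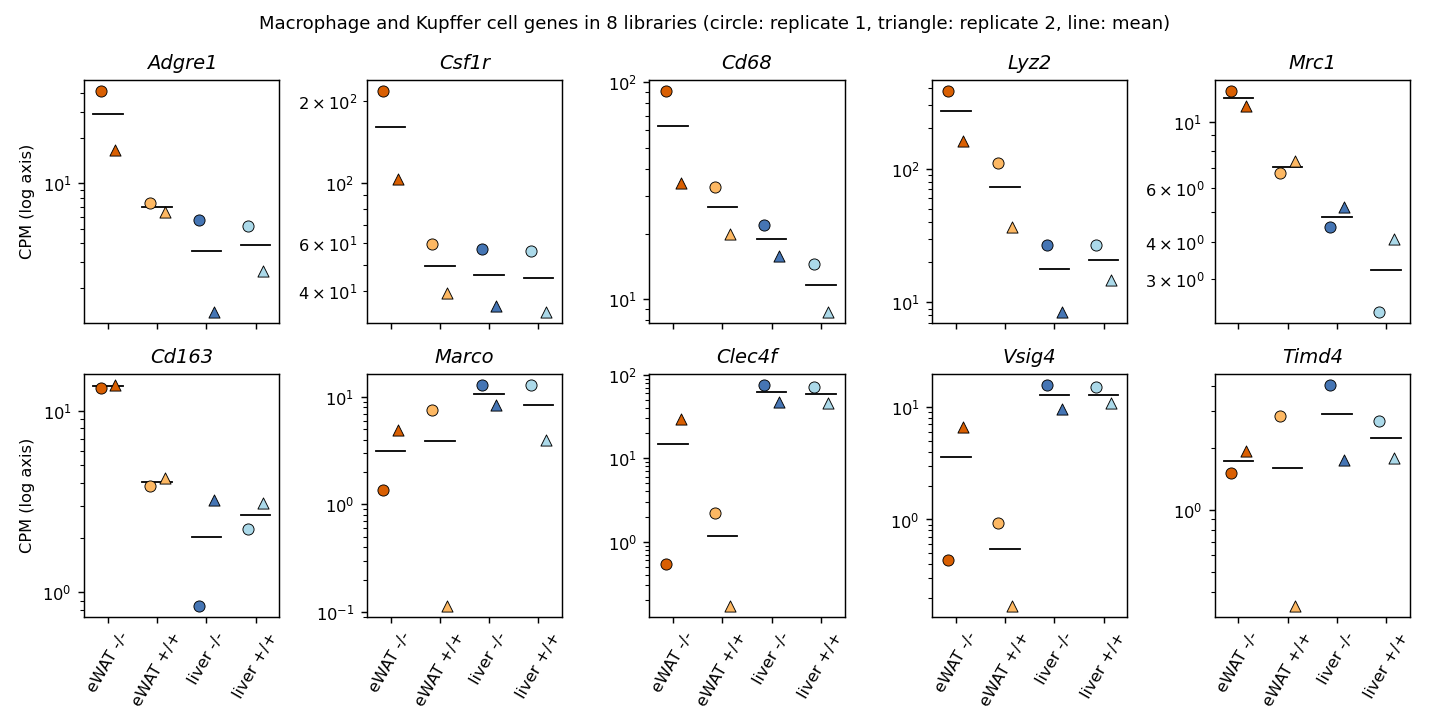
CPM (log axis) of the 10 genes in the 8 libraries, 1 panel a gene, with the 4 tissue and labelled genotype groups on the x axis, circles for replicate 1, triangles for replicate 2 and a line at the mean. Adgre1, Csf1r, Cd68, Lyz2, Mrc1 and Cd163 were higher in both eWAT Crtc1-/- libraries than in both eWAT Crtc1+/+ libraries, while Clec4f and Vsig4 were high in all 4 liver libraries and in eWAT Crtc1-/- replicate 2.

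In eWAT the question was whether macrophage genes differed between the labelled genotypes, and 3 of the 10 passed the test: Adgre1, Csf1r and Cd163 rose 3.94-fold to 5.0-fold in the libraries labelled Crtc1-/-. Tests used edgeR's quasi-likelihood method on the 4 eWAT libraries adjusted by Benjamini-Hochberg over 15391 genes, of which 12.2% were called at an adjusted p under 0.05 and 6.65% were called higher. The median log2 fold change was 2.03 over the 10 genes and -0.05 over all genes tested. By unadjusted p under 0.05, 6 of the 10 passed, against 33.3% of all genes, and DESeq2 called 6 of the 10, against 30% of all genes. Both libraries labelled Crtc1-/- were higher in CPM than both labelled Crtc1+/+ for 6 of the 10, against 21.1% of all genes, and lower for 0 of the 10, against 44% of all genes.

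Of the general macrophage genes, Adgre1 was at 41.3 and 16.6 CPM across libraries labelled Crtc1-/- and at 7.43 and 6.47 CPM in those labelled Crtc1+/+. The groups did not overlap, and replicate 1 of Crtc1-/- stood highest. The difference was 2.32 ± 0.48 on the log2 scale (standard error, adjusted p = 0.0452 by edgeR), a 5.0-fold change. Csf1r was at 218 and 104 CPM against 59.6 and 39.5, also without overlap and with the same library highest, and rose by 1.98 ± 0.41 (edgeR adjusted p = 0.0454). Cd68 was at 91.3 and 34.4 CPM against 33.0 and 20.1. Its lower Crtc1-/- library and its higher Crtc1+/+ library were nearly level, and the difference of 1.51 ± 0.50 did not pass (edgeR adjusted p = 0.113). Lyz2, the most abundant of the 10 in eWAT by group mean, was at 381 and 160 CPM against 109 and 36.6. It had no overlap but a spread within each group of more than 2-fold, and its difference of 2.17 ± 0.65 did not pass (edgeR adjusted p = 0.0943). Its paralog Lyz1 was at 46.2 and 32.5 CPM against 13.2 and 4.37, a difference of 2.47 ± 0.60 (edgeR adjusted p = 0.0601).

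The scavenger receptors were divided. Cd163 was at 13.3 and 13.9 CPM across libraries labelled Crtc1-/- and at 3.82 and 4.26 CPM in those labelled Crtc1+/+. The replicates of each group were close together, unlike those of the general genes, and Cd163 rose by 2.07 ± 0.42 (edgeR adjusted p = 0.0434), a 4.21-fold change. Mrc1 was at 12.6 and 11.2 CPM against 6.77 and 7.38, again with close replicates and no overlap, and its difference of 1.06 ± 0.39 did not pass (edgeR adjusted p = 0.135). Marco was at 1.35 and 4.88 CPM against 7.65 and 0.114, so that both its highest and its lowest library were labelled Crtc1+/+. Its difference was 0.10 ± 1.67 (edgeR adjusted p = 0.972), and its sign turned under library-size and upper-quartile scaling.

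Of the Kupffer cell genes 0 of 3 passed, and Clec4f and Vsig4 had the largest estimates of the 10. Clec4f was at 0.540 and 29.4 CPM across libraries labelled Crtc1-/- and at 2.18 and 0.170 CPM in those labelled Crtc1+/+, or 10 and 519 counts against 40 and 3. Replicate 2 of Crtc1-/- stood far above the other 3 libraries, which overlapped, and the difference was 4.12 ± 2.07 (edgeR adjusted p = 0.227). Vsig4 had the same shape, at 0.432 and 6.69 CPM against 0.928 and 0.170, with a difference of 3.12 ± 1.59 (edgeR adjusted p = 0.231). Timd4 was at 1.51 and 1.93 CPM against 2.84 and 0.341, with overlapping groups and a difference of 0.46 ± 1.07 (edgeR adjusted p = 0.783). Without eWAT Crtc1-/- replicate 2, the library with high hepatocyte genes, the estimates were -0.90 for Clec4f, -0.14 for Vsig4, -1.28 for Marco and 0.14 for Timd4.

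In that library several Kupffer cell genes and the hepatocyte genes Alb, Apoa1 and Apoa2 stood at 40.3% to 64.1% of their liver level. Some others of both kinds stood outside this range, with the hepatocyte genes Fga below it and Cyp2e1 above it. Clec4f was at 48.7% of its mean over the 4 liver libraries, Vsig4 at 52.3%, Marco at 50.9% and Cd5l, another Kupffer cell gene, at 40.3%, while Timd4 was at 75.1% and Folr2, also used as a Kupffer cell gene, at 309.8%. The hepatocyte genes Alb, Apoa1 and Apoa2 were at 46.6%, 57.9% and 64.1%. In eWAT Crtc1-/- replicate 1, Clec4f was at 0.894%, Vsig4 at 3.38% and Alb at 0.447% of the liver mean, but Marco was at 14.1%, Timd4 at 58.9% and Folr2 at 640.8%. In eWAT Crtc1+/+ replicate 2 Clec4f was at 0.282%, Vsig4 at 1.33%, Alb at 0.402% and Timd4 at 13.3%. In eWAT Crtc1+/+ replicate 1, Clec4f was at 3.62% and Alb at 2.73%, but Marco was at 79.8% and Timd4 at 111%. The general genes and the other scavenger receptors were above their liver mean in all 4 eWAT libraries, apart from Csf1r at 86.9% in eWAT Crtc1+/+ replicate 2. In CPM most genes stood higher in eWAT. Both eWAT libraries were above both liver libraries for 80.4% of all genes with the label Crtc1+/+ and for 69.5% with the label Crtc1-/-. By edgeR's scaled estimates, Adgre1, Csf1r, Cd68, Mrc1 and Cd163 were lower in eWAT than in liver labelled Crtc1+/+, though only Csf1r was called. The part of liver tissue in the eWAT values was not tested. Without eWAT Crtc1-/- replicate 2 the estimates of the general genes were larger, at 2.73 for Adgre1, 2.31 for Csf1r, 1.95 for Cd68 and 2.58 for Lyz2, and all 4 were called by edgeR, while Cd163, at 1.87, was not. That fit called 12.3% of all genes, and its spread came from the Crtc1+/+ libraries alone, the lone Crtc1-/- library being assumed to vary like them.

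**Figure D2:**
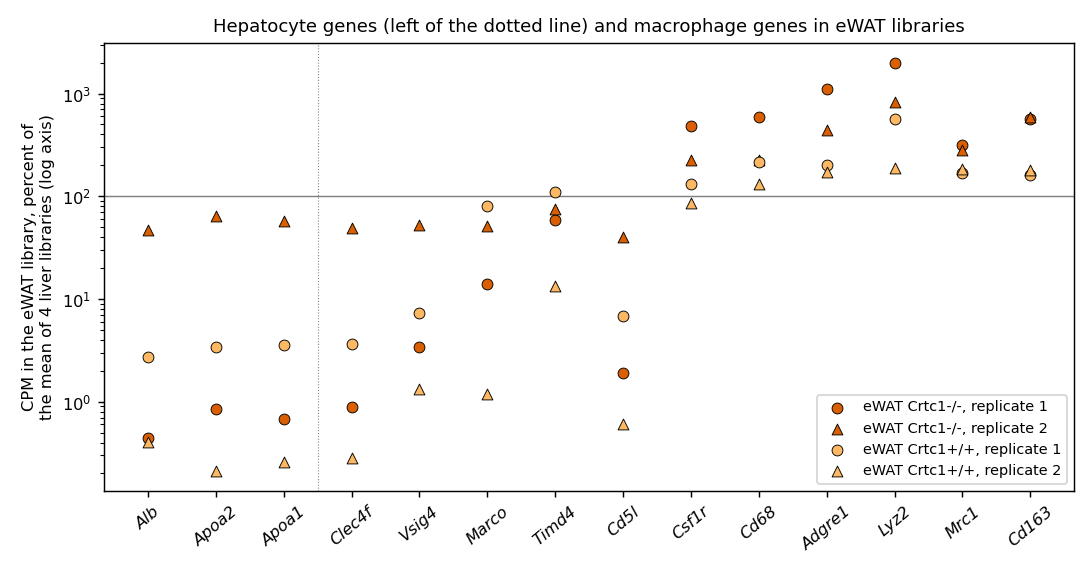
Level of 3 hepatocyte genes (left of the dotted line), the 10 members and Cd5l in each eWAT library, as a percent of the mean CPM of the 4 liver libraries (log axis), with circles for replicate 1, triangles for replicate 2, dark points for Crtc1-/- and light points for Crtc1+/+. Dark triangles for the 3 hepatocyte genes, Clec4f, Vsig4, Marco and Cd5l lie between 40.3% and 64.1%, while all points for Adgre1, Cd68, Lyz2, Mrc1 and Cd163 lie above 100%. In CPM, both eWAT libraries were above both liver libraries for 80.4% of all genes with the label Crtc1+/+ and for 69.5% with the label Crtc1-/-.

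The 3 calls in eWAT were lost under several settings. With upper-quartile or library-size scaling edgeR called 0 of the 10. These scalings moved the median of all genes from -0.05 to -0.25 and -0.35, and the split of all calls from 1023 higher and 852 lower to 744 and 996, and to 587 and 1075. In fits without either Crtc1+/+ library edgeR called 0 of all genes, and without Crtc1-/- replicate 1 Adgre1, at 1.71, was not called. The epididymis genes, high in both of these libraries, moved with the same contrast: 13 of 14 were called lower in libraries labelled Crtc1-/- and 14 of 14 were lower. Their part in the macrophage result was not tested. Leaving the listed epididymis and hepatocyte genes out of the counts gave the same 3 calls, with estimates of 2.35 for Adgre1, 2.02 for Csf1r and 2.14 for Cd163. That fit dropped only the listed genes and kept all other counts, so it cannot show whether those tissues had a part. With 2 libraries against 2, an exact permutation test of a single gene cannot give a p below 0.333.

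In liver, no difference between the labelled genotypes passed for the 10 genes: edgeR called 0 of 10, against 0.0854% of the 11707 genes tested, and DESeq2 called 0 of 10. By unadjusted p under 0.05, 0 of the 10 passed, against 17.3% of all genes, and the median log2 fold change was 0.00 over both the 10 genes and all genes. Estimates ran from -0.48 for Cd163 to 0.65 for Cd68. Both libraries labelled Crtc1-/- were higher for 2 of the 10 (Cd68 and Mrc1), against 28.4% of all genes, and lower for 0, against 23% of all genes.

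Clec4f was at 76.2 and 47.3 CPM across liver libraries labelled Crtc1-/- and at 72.1 and 46.0 CPM across liver libraries labelled Crtc1+/+. Replicate 1 was the higher in both groups and the groups covered nearly the same range, with a difference of 0.02 ± 0.33 (edgeR adjusted p = 0.982). Vsig4 was at 15.8 and 9.54 CPM against 15 and 10.8, a difference of -0.07 ± 0.33 (edgeR adjusted p = 0.930). Timd4 was at 4.05 and 1.75 CPM against 2.69 and 1.79, a difference of 0.33 ± 0.49, and Marco was at 13 and 8.39 CPM against 12.9 and 3.99, a difference of 0.30 ± 0.48. Replicate 1 was also the higher of each pair for these genes.

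Csf1r was at 56.9 and 35.1 CPM across liver libraries labelled Crtc1-/- and at 56.2 and 33.4 in liver labelled Crtc1+/+, with an estimate of -0.01 ± 0.34, whose sign turned under other scalings. Adgre1 was at 5.73 and 1.39 CPM against 5.17 and 2.61 (-0.16 ± 0.61), and Lyz2 was at 26.9 and 8.45 CPM against 26.9 and 14.7 (-0.28 ± 0.50). In each of these genes replicate 2 of Crtc1-/- was the lowest library or close to it, and without liver Crtc1-/- replicate 1 Adgre1 and Lyz2 were called lower, at -1.54 and -1.36, in a fit that called 12.5% of all genes and took its spread from the Crtc1+/+ libraries, the lone Crtc1-/- library being assumed to vary like them. Cd68 was at 22 and 15.8 CPM against 14.6 and 8.74, without overlap, and its difference of 0.65 ± 0.33 did not pass (edgeR adjusted p = 0.332). Mrc1 was at 4.47 and 5.19 CPM against 2.33 and 4.09 (0.53 ± 0.39), and Cd163 was at 0.841 and 3.20 CPM against 2.23 and 3.12 (-0.48 ± 0.57). Cd163 in liver rested on few counts, and its groups overlapped.

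**Figure D3:**
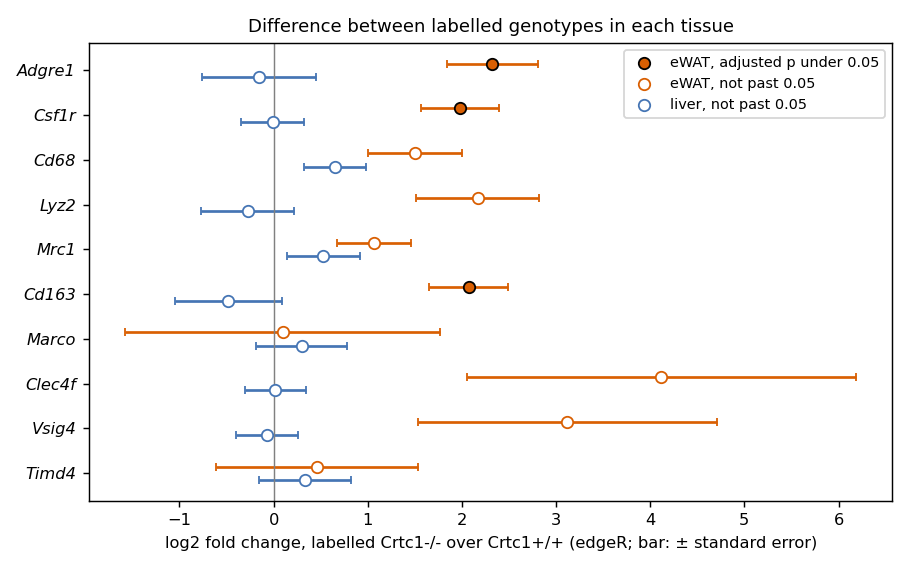
Log2 fold change of libraries labelled Crtc1-/- over those labelled Crtc1+/+ for the 10 genes in eWAT and in liver, with bars of ± 1 standard error from edgeR, and filled points for adjusted p under 0.05. Adgre1, Csf1r and Cd163 are filled in eWAT, no point is filled in liver, and the bars of Clec4f, Vsig4 and Marco in eWAT are the widest.

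Whether the difference between labelled genotypes itself differed between the tissues was tested as an interaction in a fit of all 8 libraries, and edgeR called 0 of the 10, against 6.94% of 15587 genes. By unadjusted p under 0.05, 3 of the 10 passed, against 26.9% of all genes, and DESeq2 called 1, Csf1r, against 14.9% of all genes. The difference in eWAT was larger than that in liver by 2.36 ± 0.95 for Adgre1 on the log2 scale (edgeR adjusted p = 0.169), by 1.88 ± 0.59 for Csf1r (edgeR adjusted p = 0.102) and by 2.49 ± 0.84 for Cd163 (edgeR adjusted p = 0.120). For Lyz2 it was 2.32 ± 1.01, for Cd68 0.73 ± 0.61 and for Mrc1 0.46 ± 0.51. The call of 3 genes in eWAT and of 0 in liver is therefore not itself a difference between the tissues, which edgeR tested and did not call.

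Between the tissues, Clec4f and Vsig4 were lower in eWAT in libraries labelled Crtc1+/+, while Timd4, at -1.88 ± 0.95, did not pass (edgeR adjusted p = 0.127). In libraries labelled Crtc1+/+, the log2 difference of eWAT from liver was -7.03 ± 1.93 for Clec4f (edgeR adjusted p = 0.0208), Vsig4 was at -5.92 ± 1.38 (edgeR adjusted p = 0.0119) and Csf1r was at -1.25 ± 0.42 (edgeR adjusted p = 0.0392). These 3 of the 10 were called, all lower, against 54.9% of 15587 genes called and 19.8% called lower. In CPM, eWAT was below liver in both libraries for 2 of the 10 (Clec4f and Vsig4), against 11.2% of all genes, and above for 5 of the 10 (Adgre1, Cd68, Mrc1, Cd163 and Lyz2), against 80.4%. These counts depend on scaling: TMM factors were 1.21 to 1.68 in eWAT and 0.627 to 0.676 in liver, and library-size scaling moved the median of all genes from 0.61 to 2.0 and the split of all calls from 5461 higher and 3091 lower to 10702 and 1124. Under library-size scaling Clec4f and Vsig4 stayed lower, while Adgre1, Csf1r, Cd68, Mrc1 and Cd163 turned from lower to higher in eWAT. Without eWAT Crtc1+/+ replicate 2, the library with the lowest Clec4f, 0 of the 10 were called, Clec4f was not called without either liver Crtc1+/+ library, and Csf1r was not called without any 1 of the 4 libraries labelled Crtc1+/+.

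In libraries labelled Crtc1-/-, edgeR called 1 of the 10, Lyz2, against 27.8% of all genes called and 18.9% called higher. Library-size scaling moved that split from 2945 higher and 1385 lower to 7022 and 105. Lyz2 was higher in eWAT by 2.73 ± 0.75 (edgeR adjusted p = 0.0366), and it was not called without eWAT Crtc1-/- replicate 1 or without any 1 of the 4 liver libraries. Clec4f, at -2.94 ± 1.57, and Vsig4, at -2.77 ± 1.15, were not called (edgeR adjusted p = 0.187 and 0.111), and without eWAT Crtc1-/- replicate 2, the library with high hepatocyte genes, they were called at -8.18 and -6.21. In CPM, eWAT was below liver in both libraries for 3 of the 10 (Clec4f, Vsig4 and Marco), against 9.39% of all genes, and above for 6 (Adgre1, Csf1r, Cd68, Mrc1, Cd163 and Lyz2), against 69.5%.

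Ratios within a library do not depend on scaling, so each of the 7 genes other than Adgre1, Csf1r and Cd68 was also set against the mean log2 count of those 3 in the same library. On this measure Lyz2 was higher in all 4 eWAT libraries (1.08 to 2.16) than in all 4 liver libraries (-0.12 to 0.73), an arrangement shared by 15% of all genes. On the same measure 4 of the 7 genes were lower in all 4 eWAT libraries, an arrangement shared by 11.4% of all genes: Clec4f at -7.37 to -0.40 against 1.98 to 2.36, Vsig4 at -7.67 to -2.54 against -0.29 to 0.24, Marco at -6.93 to -1.68 against -1.19 to -0.13, and Timd4 at -5.93 to -3.10 against -2.58 to -2.25. For these genes eWAT Crtc1-/- replicate 2, too, was below every liver library. Mrc1 and Cd163 overlapped between the tissues. Between labelled genotypes in eWAT, the ratio differed by 0.41 for Lyz2, 0.19 for Cd163 and -0.80 for Mrc1, and the groups overlapped for each of these genes.

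**Figure D4:**
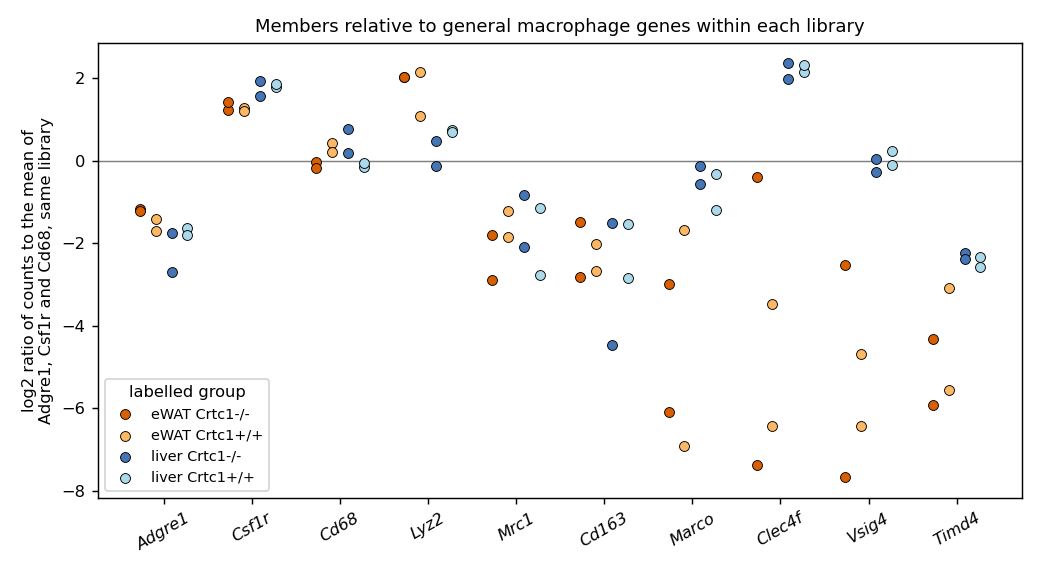
Log2 ratio of each gene's count to the mean of Adgre1, Csf1r and Cd68 in the same library, with 1 point a library coloured by labelled group (the ratios of these 3 genes sum to 0 in each library by construction). Clec4f, Vsig4, Timd4 and Marco lie lower in the eWAT libraries than in the liver libraries, and Lyz2 lies higher.

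Other genes of macrophages were read from lists of their markers. Of 25 further genes used as markers of macrophages in most tissues, 2 rose in eWAT labelled Crtc1-/- and 0 fell, against 6.65% and 5.54% of all genes, with a median of 1.51. Fcgr3, a low-affinity receptor for IgG, rose by 2.26 ± 0.45 (edgeR adjusted p = 0.0417). The 3 genes of the list with the highest mean FPKM over the eWAT libraries encode the chains of complement C1q. In those labelled Crtc1+/+ alone, Lgmn was at 95.4 and 84.3 FPKM, above C1qb at 80.2 and 40.1. The C1q genes did not pass, with differences of 2.21 ± 0.56 for C1qa, 2.13 ± 0.56 for C1qb and 2.20 ± 0.55 for C1qc (edgeR adjusted p = 0.0655, 0.0722 and 0.0644). C1qa was at 366 and 146 CPM against 90.7 and 43.0, so it had the same order of libraries as Csf1r.

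Of 12 genes of resident macrophages of fat and connective tissue, 7 rose and 0 fell, with a median of 2.97. Retnla, a secreted product of alternatively activated macrophages that adipose tissue also makes, was at 245 and 146 CPM across eWAT libraries labelled Crtc1-/- and at 15.3 and 7.89 CPM across eWAT libraries labelled Crtc1+/+, a rise of 4.37 ± 0.47 (edgeR adjusted p = 0.0170). The lectin genes Cd209f, Clec10a and Mgl2 rose by 4.12 ± 0.64, 3.06 ± 0.42 and 3.05 ± 0.55. Clec10a was at 58.2 and 35.3 CPM against 8.57 and 5.11, with no overlap. In all 4 liver libraries these 4 genes were at 0.761 CPM or less.

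Of 9 further Kupffer cell genes tested, 4 rose in eWAT and 0 fell, with a median of 2.48: Folr2 by 3.44 ± 0.58, Nr1h3 by 3.41 ± 0.37, Id3 by 3.13 ± 0.52 and Slc11a1 by 2.48 ± 0.52. Folr2, a folate receptor of resident macrophages, was at 69.1 and 33.4 CPM against 8.03 and 3.41, and its highest library was replicate 1 of Crtc1-/-, in which Clec4f was at 0.540 CPM. Cd5l, a secreted protein of Kupffer cells, was at 1.24 and 26.4 CPM against 4.42 and 0.397, which was the order of libraries of Clec4f, and did not pass. Nr1h3 encodes the liver X receptor alpha, which hepatocytes and adipocytes also express, and Id3 is widely expressed.

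Of 13 genes of lipid-associated macrophages, 4 rose and 2 fell, with a median of 1.18, and by estimate 9 were higher and 4 lower. The 2 that fell were Atp6v0d2 and Gpnmb. Gpnmb, named here beyond the 4 largest changes, was at 11.8 and 8.96 CPM across eWAT libraries labelled Crtc1-/- against 42.2 and 49.4. Fabp5, a fatty acid binding protein, was at 1034 and 444 CPM against 36.8 and 51.3 and rose by 4.33 ± 0.53, Acp5 rose by 4.11 ± 0.41, and Mmp12, a macrophage elastase, rose by 3.64 ± 0.75 at 3.94 CPM or less in each library. Atp6v0d2, a subunit of the proton pump that acidifies lysosomes, was at 1.78 and 2.16 CPM against 35.3 and 66.7 and fell by 4.37 on the log2 scale (standard error 0.53, edgeR adjusted p = 0.0193). Fabp5 is also made by adipocytes and Atp6v0d2 by other epithelia, so neither is a marker of macrophages alone. Of 10 genes of inflammatory activation, 4 were tested, with 1 that rose (Nos2, 4.08 ± 0.59) and 1 that fell (Ptgs2, at 0.162 and 0 CPM against 19.0 and 7.21). Of 5 tested genes of alternative activation, 3 rose, all of which also stood among the genes of resident macrophages of fat, and of 8 monocyte genes 0 rose and 1 fell, Plac8 by 3.33 on the log2 scale (edgeR adjusted p = 0.0226).

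The CSF1 receptor pathway was read through its ligands, receptors, adaptors and transcription factors, 15 genes tested in eWAT, Csf1r included, of which 5 rose and 1 fell. The ligands did not pass, with Csf1 at 60.5 and 25.7 CPM against 29.9 and 27.4 (0.86 ± 0.41) and Il34 at 41.1 and 15.7 CPM against 26.5 and 26.5 (0.36 ± 0.46). Csf1 was named here for its role, after its values were seen. Of the receptors, Csf2rb, the shared chain of the receptors for GM-CSF, IL-3 and IL-5, was at 121 and 95.1 CPM against 11.6 and 7.72 and rose by 3.79 ± 0.34 (edgeR adjusted p = 0.0162). The adaptor Tyrobp was at 86.7 and 31.5 CPM against 21.9 and 9.59 and did not pass (2.17 ± 0.61, edgeR adjusted p = 0.0805). Among transcription factors, Cebpa, which also acts in adipocytes and hepatocytes, rose by 3.10 ± 0.35, and Runx1 was at 4.97 and 2.89 CPM against 26.8 and 44.0 and fell by 2.89 on the log2 scale (edgeR adjusted p = 0.0281). In liver, edgeR called 0 genes of any of these lists, against 0.0854% of the 11707 genes tested, so few calls could be seen in any list.

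**Figure D5:**
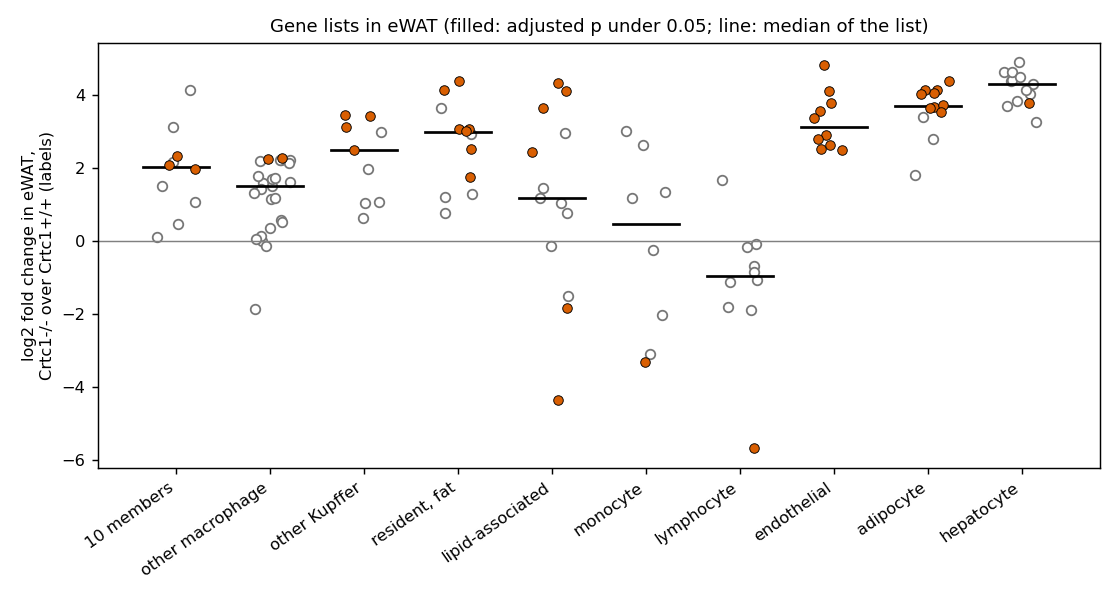
Log2 fold change in eWAT, libraries labelled Crtc1-/- over those labelled Crtc1+/+, for the 10 members and 9 other lists of marker genes, with filled points for adjusted p under 0.05 and a line at each list's median. The medians of the members, of the genes of resident macrophages of fat and of the endothelial, adipocyte and hepatocyte genes lie above 2, and that of the lymphocyte genes lies below 0.

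Genes of other cell types moved in the same contrast. Of 10 endothelial genes all rose, with a median of 3.12, and their summed level was 4921 and 2857 CPM across eWAT libraries labelled Crtc1-/- against 381 and 388. Of 12 adipocyte genes 9 rose, with a median of 3.69, and of 13 hepatocyte genes 1 rose, with a median of 4.30. Of 10 lymphocyte genes tested 0 rose and 1 fell, and of 8 fibroblast genes 1 rose and 1 fell. Of 8 liver sinusoidal endothelial genes 2 rose, of 8 dendritic cell genes 1 rose, and of 5 neutrophil genes tested 1 rose. The summed level of the 10 macrophage genes, at 762 and 382 CPM against 233 and 115, thus had a smaller ratio between the labelled groups than the endothelial or adipocyte sums did. The part of these cell types in the macrophage values was not tested.

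The genes most like 4 of the members in their pattern over the 8 libraries were found by the root mean square difference of centred log2 CPM, among 11087 genes. For Clec4f they were Urah at 0.157, Serpina10 at 0.184 and Apon at 0.194. Urah was at 3.57, 181, 13.1 and 1.59 CPM in eWAT Crtc1-/- replicates 1 and 2 and Crtc1+/+ replicates 1 and 2, and at 256 to 347 CPM in liver, so it was high in the same eWAT library as Clec4f. For Adgre1 the nearest were Gpat3 at 0.266, Calhm2 at 0.311 and E2f1 at 0.323. For Mrc1 they were Sox6 at 0.187, Slc38a6 at 0.194 and Foxo1 at 0.195, and for Lyz2 they were Hcls1 at 0.325, Csf2rb2 at 0.380 and Elf4 at 0.386. Gpat3 was at 82.4 and 35.9 CPM across eWAT libraries labelled Crtc1-/-, at 18.1 and 21.9 CPM across eWAT libraries labelled Crtc1+/+ and at 4.05 to 11.1 CPM in liver. Lyz2 and Adgre1 had no neighbour as close as that of Clec4f or Mrc1.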

How the data were processed

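RNA-seq was analysed in 8 libraries, 2 for each of liver and eWAT of mice labelled Crtc1-/- and Crtc1+/+. The authors deposited estimated counts per gene, not normalized (5.44% to 9.98% of values per library were not whole), and FPKM, which scale counts by transcript length and library total. The submitters' processing notes name HISAT, Bowtie2 and GRCm38.p6, and the counting tool, its version and its use of strand are not given in the sources used here. Counts were rounded, and CPM were computed on library size. Genes were tested with edgeR 4.0.16 (R 4.3.3; TMM scaling, filterByExpr, quasi-likelihood F-test, Benjamini-Hochberg over all genes tested, threshold 0.05), within tissue for genotype and over all 8 libraries for tissue and interaction. The p-values from 2 libraries a group measure the spread between these libraries only. The test was checked on simulated data. Alternatives were DESeq2 1.42.0, limma 3.58.1 on log2(FPKM + 1) and log2(FPKM + 0.1) after quantile normalization, other filters and scalings, replicate blocks and each library left out. No replicate pair was a repeated library (chi-square per degree of freedom 57.1 to 527). The 10 genes and all marker lists were chosen with earlier results of these data known. All 10 genes were named, and of each list up to 4 called genes by size of change and up to 3 by FPKM, and exceptions are stated. The values of 1 called list gene are not reported here. Gene positions came from GENCODE and promoters from RefSeq. Counting error only is covered by the floor of 3 counts.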

Additional observations from a re-analysis of the deposited data

Results flagged for a closer look

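In the macrophage and monocyte lists, 9 genes outside the 10 had a difference between labelled genotypes that itself differed between eWAT and liver at an edgeR adjusted p under 0.05 for the interaction, which was passed by 6.94% of all genes. By list these were 4 of 13 genes of lipid-associated macrophages, 3 of 15 of the CSF1 receptor pathway, 1 of 10 Kupffer cell genes (Nr1h3, also in the CSF1 receptor list), 1 of 12 of resident macrophages of fat, 1 of 8 monocyte genes and 0 of 25 further macrophage genes. Lists of other cells moved too, with 13 of 14 epididymis genes called at negative values and 7 of 10 endothelial and 5 of 12 adipocyte genes called at positive values. Among genes of macrophage lineage control, the difference in eWAT exceeded that in liver by 4.49 for Csf2rb on the log2 scale, by 3.34 for Nr1h3 and by 2.92 for Cebpa. Csf2rb was at 121 and 95.1 CPM across eWAT libraries labelled Crtc1-/-, at 11.6 and 7.72 CPM across eWAT libraries labelled Crtc1+/+ and at 2.60 to 6.39 CPM in liver. Among genes of lipid-associated macrophages it was 4.73 for Fabp5, 4.14 for Acp5, 2.58 for Lipa and -7.22 for Atp6v0d2, whose log2 difference was negative in eWAT. Cd209f, a lectin gene of resident macrophages, differed by 4.90, and the monocyte gene Plac8 by -4.72. Several of these genes are also expressed by adipocytes, hepatocytes or epithelia, whose markers moved between the same eWAT libraries, and the part of those tissues was not tested. Groups of 2 libraries were too small to test a single library as an outlier.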

How the results depend on the processing

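The number of the 10 genes called in eWAT was 3 with edgeR, 6 with DESeq2, and 0 with library-size scaling, upper-quartile scaling or the replicate block, and 0 to 4 with each library left out. In liver it was 0, and 0 to 2 with each library left out. For the interaction it was 0, against 1 with DESeq2 and with each pseudocount of limma, 2 with the replicate block, 1 with a block by mouse number and 0 to 2 with each library left out. Between tissues it was 3 in libraries labelled Crtc1+/+, 6 with limma at pseudocounts of 1 and 0.1, which called 43.3% and 44.8% of all genes, and 0 to 4 with each library left out. In libraries labelled Crtc1-/- it was 1, against 2 with DESeq2, 4 and 2 with limma at pseudocounts of 1 and 0.1, 6 with library-size scaling, 3 with the replicate block, 3 with a block by mouse number, 0 in a fit of that genotype alone and 0 to 4 with each library left out.

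Signs turned as follows. In eWAT, Marco was at -0.16 with upper-quartile and -0.32 with library-size scaling, and with each library left out Marco ran from -1.28 to 5.12, Clec4f from -0.90 to 6.92, Vsig4 from -0.14 to 4.83 and Timd4 from -0.34 to 2.65. In liver, Csf1r was at 0.077 and 0.083 with limma, 0.062 with a mean count of at least 50, 0.073 with upper-quartile scaling, 0.038 with library-size scaling and 0.013 without epididymis and hepatocyte genes, and Vsig4 was at 0.0081 with upper-quartile scaling. With each library left out, liver values ran from -1.70 to 0.19 for Cd163, -0.38 to 0.35 for Clec4f, -0.42 to 0.81 for Timd4, -0.32 to 1.36 for Marco, -1.54 to 0.52 for Adgre1, -0.42 to 0.39 for Csf1r, -1.36 to 0.33 for Lyz2 and -0.50 to 0.25 for Vsig4. The interaction of Marco was 0.56 with limma at a pseudocount of 0.1, 0.34 with the replicate block and 0.36 with a block by mouse number, and that of Timd4 was -0.17 and -0.27 with upper-quartile and library-size scaling. With each library left out it ran from -1.69 to 4.69 for Marco, -1.0 to 6.80 for Clec4f, -0.13 to 4.78 for Vsig4, -0.77 to 2.22 for Timd4 and -0.0090 to 0.83 for Mrc1. For eWAT against liver labelled Crtc1+/+, limma at pseudocounts of 1 and 0.1 gave 0.12 and 0.13 for Cd68, -0.13 and -0.47 for Ccr2, -0.12 and -0.42 for Nos2, -0.13 and -0.41 for Ptprc, and -0.22 and -0.62 for Zeb2. Library-size scaling gave 0.84 for Adgre1, 0.14 for Csf1r, 1.19 for Cd68, 1.14 for Mrc1, 0.60 for Cd163 and 0.037 for Il18bp, and with each library left out values ran from -0.57 to 0.98 for Lyz2, -0.60 to 0.18 for Cd68 and -0.63 to 0.21 for Mrc1. For those labelled Crtc1-/-, Mrc1 was at -0.22 and -0.36 with limma, and Cd68 ran from -0.015 to 0.90 with each library left out.

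Over all alternatives in eWAT, the number called higher ran from 0 to 13 for the 25 macrophage genes (2 as reported, 13 with DESeq2, 9 with all 8 libraries in 1 fit), from 0 to 10 for the genes of resident macrophages of fat, from 0 to 4 for the Kupffer cell genes and from 0 to 8 for the CSF1 receptor pathway. Each was 0 with the replicate block and without either eWAT Crtc1+/+ library, settings in which edgeR called 0 of all genes. Over all genes, edgeR called 1875 in eWAT, against 4620 with DESeq2, 3861 with all 8 libraries in 1 fit, 0 with the replicate block and 0 to 3073 with each library left out. In liver it called 10, against 311 with DESeq2, 301 with no filter, 82 with the replicate block, 0 with limma and with all 8 libraries in 1 fit, and 1 to 1507 with each library left out. The interaction was called for 1081 (589 higher, 492 lower), against 2056 with DESeq2, 2533 and 2390 with limma, 1746 with the replicate block, 705 (262 and 443) with library-size scaling, 965 (420 and 545) under upper-quartile scaling and 0 to 2261 with each library left out. Between tissues it called 8552 in libraries labelled Crtc1+/+, against 4285 to 8872 with each library left out, and 4330 in those labelled Crtc1-/-, against 7127 with library-size scaling, 2485 in a fit of that genotype alone and 1511 to 5962 with each library left out. The replicate numbers gave correlations of deviations of 0.0054 to 0.161 between groups, so they were not taken as pairs. The cause of these shifts was not tested. Precision was limited by 2 libraries a group, with a biological coefficient of variation of 0.517 in eWAT and 0.253 in liver, and by depth where Clec4f, Vsig4 and Marco had 2 or 3 counts in eWAT Crtc1+/+ replicate 2.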
